A study of Mus musculus with 13 samples.

Results

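The response of mouse oocytes 4 and 6 h after γ-irradiation was compared with the state at 0 and 1 h, with both doses, 0.5 and 0.2 Gy, in 1 fit. The comparison used 11 of the 13 RNA-seq libraries of the series: 5 late ones of 4 and 6 h and 6 early ones of 0 and 1 h. Neither library of 2.5 h was included. All libraries came from ovaries of P5 CD-1 mice that were cultured overnight and digested with trypsin, after which the oocytes were separated from the follicular cells by centrifugation. The ovaries were irradiated from a caesium source, except that the paper describes the 0 h samples as taken before irradiation, whereas the labels count 0 h among the times after it. By the paper's account, 3 of the 6 early libraries are thus not irradiated and carry the dose only as the name of their series. The methods give 4 ovaries for each time point, so that a library is a pool, and no oocytes without irradiation were followed over the same hours. At 0.5 Gy, the early side held 4 libraries (2 each at 0 and 1 h) and the late side 3 (2 at 4 h and 1 at 6 h). At 0.2 Gy, each of the 4 time points had 1 library. In the labels, replicate 1 of 0.5 Gy is of the first generation, replicate 2 with the 6 h library of the second, and all libraries of 0.2 Gy are of the third generation. The labels do not say what a generation is, and 0.2 Gy and its generation cannot be told apart. The assignment of replicates 1 and 2 at 1 and 4 h of 0.5 Gy is in doubt, because the study's list of read numbers has them in the opposite order to the files. The labels were kept, and the block by generation and comparisons between these replicates rest on them.

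Resting oocytes carry the p53 family member p63 in its TAp63α form, which is held inactive until DNA double-strand breaks are sensed by ATM and CHK2. Once active, TAp63α binds the same type of DNA element as p53 and can switch on genes that are known as p53 targets, among them the BH3-only genes *Pmaip1* (NOXA) and *Bbc3* (PUMA), whose products start mitochondrial apoptosis. p53 targets also include feedback genes such as *Mdm2*, cell cycle inhibitors such as *Cdkn1a*, and genes of metabolism and DNA repair. The comparison asks which transcripts stood at another level once this response had had hours to develop, at either dose.

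The DNA element can be read directly in the promoters of some of the genes that rose. RefSeq promoters (build GRCm38.p6, 250 bases before to 50 bases after a start site) were at hand for 22 of the 28 protein-coding genes called in the comparison. The p53 family consensus, a 20-base element of 2 decamers without a spacer, was searched on both strands with at most 2 mismatches and none in the C and G at the core of each decamer. It was found in 3 of the 22 genes (13.6%) and in 60 of 13519 tested protein-coding genes with a promoter (0.444%). The elements of all 3 genes are shown. They are written along the strand of the gene, with the C and G of both cores in capitals, and each differs from the consensus at 1 position:
*Cdkn1a*: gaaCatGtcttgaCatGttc
*Ccng1*: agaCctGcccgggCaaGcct
*Gtse1*: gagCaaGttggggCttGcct
The *Cdkn1a* element lies at chr17:29090928-29090947 on the plus strand and begins 51 bases before a RefSeq start of the gene. The *Ccng1* element (chr11:40755462-40755481, minus strand) begins 195 bases before a RefSeq start, and the *Gtse1* element (chr15:85859945-85859964, plus strand) begins 1 base before one. A match of letters is a description and not evidence of binding, and a promoter without one may have an element elsewhere.

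The libraries held between 15709549 reads (0.5 Gy, replicate 2 of 0 h) and 30430104 reads (0.2 Gy, 0 h). Levels are given as CPM, read counts relative to library size after TMM scaling (a scaling that assumes most genes do not change). Oocyte markers were high on both sides: *Zp3*, a zona pellucida gene, lay between 433 and 741 CPM in the early and between 478 and 683 in the late libraries, and the summed CPM of 20 oocyte markers differed by less than the spread (exact permutation test within generations, p = 0.833). Markers of granulosa cells (p = 0.583), stroma and theca cells (p = 0.824), immune cells (p = 0.583) and endothelium (p = 0.778) gave no difference by the same two-sided exact permutation test either, for which the smallest possible p is 0.00926. Transcripts of such cells were nevertheless present. Granulosa markers summed to 1462 to 2101 CPM early and 1613 to 2326 late, and among them *Inha* had 590 to 1387 and 732 to 1542. Stroma and theca markers summed to 1995 to 3753 early and 2328 to 3290 late, beside 7172 to 9231 and 7666 to 9617 for oocyte markers. In which cells a gene rose was not tested. The summed CPM of 8 red blood cell markers was higher late, from 2665 to 6065 against 2249 to 3512 early (exact permutation p = 0.0463), and the share of reads on protein-coding genes was higher late (85.7% to 87.4% against 84.5% to 86.7%, p = 0.00926). Replicate 2 of 0 h at 0.5 Gy held 471 CPM of immune markers, the highest value of these 11 libraries. After Benjamini-Hochberg adjustment over 11 such measures the p-values of the red blood cell markers and the protein-coding share were 0.255 and 0.102, and their part in the results was not tested. At 0.2 Gy, 42402 (0 h) and 42612 (1 h) genes had reads early, against 38586 (4 h) and 38388 (6 h) late. At 0.5 Gy the sides overlapped, with 35827 to 37658 early and 37162 to 38549 late (exact permutation p = 0.333 over all generations). The part of this in the results at 0.2 Gy was not tested. The libraries pooled on a side are of different times and doses and are not replicates of 1 condition, nothing says that they came from separate animals, and p-values measure the spread between these libraries, which may be technical. In bulk RNA, fewer cells of a type and less RNA per cell cannot be told apart.

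Late against early, 28 protein-coding genes rose and none fell, and the genes led by size were *D630023F18Rik*, *Ankrd65* and *Gm648*, while *Mdm2* gave the smallest p. Calls required a log2 fold change beyond 1 in either direction together with an adjusted p below 0.05 in edgeR's quasi-likelihood test with Benjamini-Hochberg adjustment, with the generation as a block. Of 17570 protein-coding genes tested, 0.159% were thus called higher and 0% lower, although at an unadjusted p under 0.05 530 (3.02%) were lower and 788 (4.48%) higher. DESeq2 called 100 higher and 21 lower, and limma-voom 36 and 0. Among all 23840 genes tested, 31 were called higher (0.13%) and 1 lower (0.00419%). The log2 fold changes of the 28 genes ran from 1.01 to 5.21 with a median of 2.21, against a median of -0.01 over all genes, 48.2% of which were above 0. In 27 of the 28 genes every late library lay above every early one, as in 0.633% of all genes tested, and in all 28 the late libraries lay above the early ones of their own generation, as in 1.91% of all genes, while 1.63% of all genes were lower in this way. The exception is *Slc19a2*, whose late library of 0.2 Gy at 4 h (21.6 CPM) fell below the highest early one (22.4 CPM). The 28 genes were called on these same libraries, so that the separation of their sides follows in part from the call. The number called higher dropped when single libraries were left out, to 14 (0.5 Gy, 4 h, replicate 1), 18 (0.5 Gy, 4 h, replicate 2), 16 (0.5 Gy, 1 h, replicate 2) and 17 (0.2 Gy, 4 h). In fits without 1 library, 12 of the 28 genes were called in all 11 fits, and the log2 fold change of none of the 28 fell below 0.93.

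**Figure D1:**
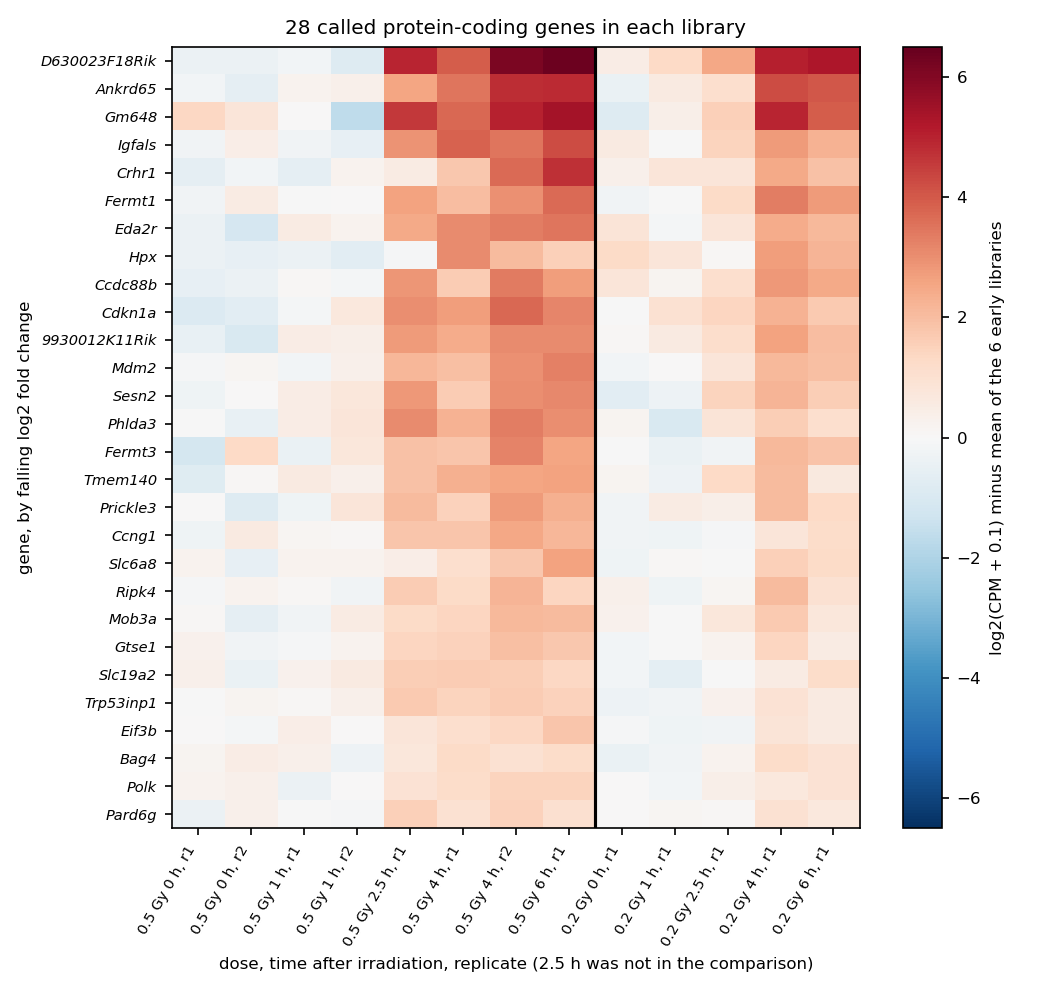
Heat map of the 28 called protein-coding genes (rows) in each of the 13 libraries (columns, by dose, time and replicate, with the doses parted by a line). Colour gives log2(CPM + 0.1) minus the gene's mean over the 6 early libraries, and the late columns are red throughout, with medians from 1.43 (0.2 Gy, 6 h) to 2.86 (0.5 Gy, replicate 2 of 4 h).

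Among the late libraries the size of the response differed. Replicate 2 of 4 h at 0.5 Gy was above replicate 1 in 24 of the 28 genes, by a median of 0.73 on the log2 scale, while 49.0% of all genes tested were higher in it. The 6 h library of 0.5 Gy was above replicate 2 of 4 h in 14 of the 28. At 0.2 Gy the 4 h library was above the 6 h library in 24 of the 28, by a median of 0.44. The medians of the early libraries over the 28 genes, taken against their own mean, lay between -0.21 and 0.24. On that measure the late libraries of 0.2 Gy stood at 2.08 (4 h) and 1.43 (6 h). They were thus further apart than the lowest and the highest early library, but each is a single library.

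Of the genes that feed back on p53, 3 of 8 were called higher, beside 0.13% of all genes tested. *Mdm2* encodes the ubiquitin ligase that marks p53 for degradation and lies at chr10:117688875-117710758 of GRCm38 on the minus strand. Its early libraries ran from 52.5 to 75.0 CPM with a median of 59.2. Late *Mdm2* levels at 0.5 Gy were 233 and 468 CPM for the 4 h replicates and 585 for 6 h, while those at 0.2 Gy were 255 for 4 h and 230.3 for 6 h. The lowest late libraries of the doses are alike, and all late libraries lie above the early ones. The mean was 354 ± 162.9 CPM (SD, n = 5) late and 60.5 ± 8.50 (SD, n = 6) early, a log2 fold change of 2.40 (SE 0.16, adjusted p = 4.02e-05 with edgeR). Its leading transcript by TPM (a level that also divides by transcript length), Mdm2-209, went from a mean of 4.95 to 33.7 TPM, and the next transcript from 1.74 to 20.1. The reads are 30 bases long, so that their division among transcripts of a gene is an estimate.

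*Ccng1* (chr11:40748552-40755311, minus strand) encodes cyclin G1, a p53 target that brings a phosphatase to MDM2. It had 44.9 to 80.6 CPM early (median 52.1) and 192, 314, 244, 95.7 and 124.6 in the late libraries, in the order 4 h replicate 1 and 2 and 6 h of 0.5 Gy, then 4 and 6 h of 0.2 Gy. All late values lie above the early ones, and those of 0.2 Gy are the lowest. The log2 fold change of *Ccng1* was 1.70 (SE 0.17, adjusted p = 0.000576 with edgeR). *Trp53inp1* (chr4:11156431-11174379, plus strand), whose product helps p53 towards its apoptotic targets, had 58.6 to 93.5 CPM early (median 76.4) and 203, 232, 209, 145 and 111.8 late in the same order. Its change was 1.24 (SE 0.11, adjusted p = 0.000403 with edgeR). *Mdm4*, the partner of MDM2 that also binds p53, was not called, with 281 ± 55.6 CPM early (SD, n = 6), 249 ± 22.9 late (SD, n = 5) and a log2 fold change of -0.19 (SE 0.13, adjusted p = 0.796 with edgeR), which was 0.22 in the 0.2 Gy libraries alone. With a separate change for each dose, *Mdm4* stood at -0.40 (SE 0.12) at 0.5 Gy and 0.18 (SE 0.15) at 0.2 Gy. The difference between the doses was -0.58 (SE 0.20, adjusted p = 0.462 with edgeR). *Ppm1d*, the phosphatase that switches off ATM and p53 signalling, had a log2 fold change of 0.64 and was not called.

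Of 15 genes of cell cycle arrest, 2 were called higher, beside the same 0.13% of all genes. *Cdkn1a* (p21, the inhibitor of cyclin-dependent kinases) lies at chr17:29090976-29100727 on the plus strand. It had 3.71 to 14.1 CPM early (median 6.59) and 45.5, 92.6 and 62.6 late at 0.5 Gy, with 33.5 and 22.8 at 0.2 Gy. The late values of 0.2 Gy lie between the early libraries and the late ones of 0.5 Gy. The log2 fold change of *Cdkn1a* was 2.58 (SE 0.38, adjusted p = 0.0166 with edgeR), a call kept in 9 of the 11 fits that left out 1 library. *AC167363.2* overlaps *Cdkn1a* on the other strand, and 9.87% of the 30-base stretches of *Cdkn1a* are shared with other genes. *Gtse1* (chr15:85859745-85876573, plus strand), a microtubule-binding protein that moves p53 out of the nucleus, had 9.22 to 13.1 CPM early (median 10.3) and 30.6, 41.8, 36.4, 28.3 and 15.3 late. Its change was 1.46 (SE 0.20, adjusted p = 0.0123 with edgeR). Just outside the threshold stood *Btg2*, an antiproliferative gene (1.03, adjusted p = 0.0598 with edgeR), and *Sfn*, which encodes 14-3-3σ (2.44, adjusted p = 0.0801). The 3 *Gadd45* genes had log2 fold changes between -0.11 and -0.03.

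**Figure D2:**
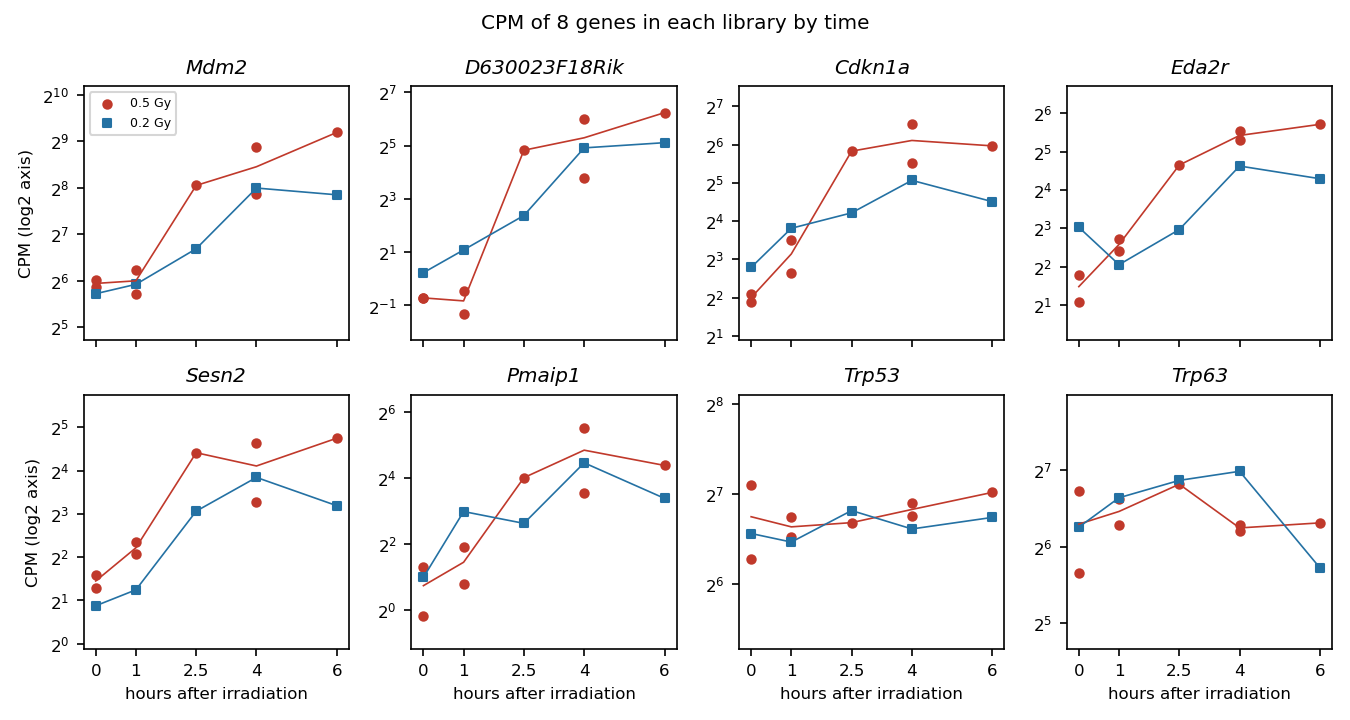
CPM of 8 genes in each library (log2 axis) against hours after irradiation, with circles for 0.5 Gy, squares for 0.2 Gy and lines through the mean of each time point. *Mdm2*, *D630023F18Rik*, *Cdkn1a*, *Eda2r*, *Sesn2* and *Pmaip1* lie higher at 4 and 6 h than at 0 and 1 h at both doses, while the sides of *Trp53* and *Trp63* overlap. The 2.5 h libraries are drawn but were not in the comparison.

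The transcripts of the p53 family itself were not called. *Trp53* had 77.4 to 137 CPM early (median 93.0) and 107.8, 119, 129.5, 97.7 and 106.8 late, with a log2 fold change of 0.20 (SE 0.14, adjusted p = 0.808 with edgeR). *Trp63* had 50.5 to 106.3 CPM early (median 88.0) and 77.9, 73.6, 79.3, 126.6 and 52.7 late. The highest and the lowest late value of *Trp63* are both of 0.2 Gy, and its change was -0.07 (SE 0.23, adjusted p = 0.970 with edgeR), a sign that turned in several other settings. *Trp73* was low, with 0.205 to 1.51 CPM early and 1.16, 4.99, 5.15, 2.67 and 2.49 late. Its log2 fold change of 2.01 (SE 0.54) gave an adjusted p of 0.312 with edgeR, and an antisense gene, *Trp73os*, overlaps it.

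Of the genes of apoptosis, the receptor *Eda2r* was the one called from the death receptor list of 12, beside 0.13% of all genes. It encodes the receptor of ectodysplasin A2, of the TNF receptor family, and lies at chrX:97333840-97377216 on the minus strand. *Eda2r* had 2.12 to 8.16 CPM early (median 4.75) and 39.4, 46.5 and 52.5 late at 0.5 Gy, with 24.7 and 19.6 at 0.2 Gy. All late values lie above the early ones, and the highest early library is that of 0.2 Gy at 0 h. The mean was 36.5 ± 14.03 (SD, n = 5) against 4.98 ± 2.20 (SD, n = 6), a log2 fold change of 2.81 (SE 0.36, adjusted p = 0.00638 with edgeR). *Fas* (1.13), *Tnfrsf10b* (0.99), and *Pidd1* (1.28), all with an unadjusted p under 0.05 in the same fit, were not called. With a separate change for each dose, they stood at 1.61, 1.37 and 1.97 at 0.5 Gy. At 0.2 Gy they stood at 0.29, 0.39 and 0.17, and *Fas* at 4 h (1.93 CPM) lay below every early library.

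None of 11 BH3-only genes and effectors was called, beside 0.134% of all genes tested, so that no call in so short a list says little. *Pmaip1* (NOXA) had 0.886 to 7.89 CPM early (median 2.22) and 11.7, 45.4, 20.7, 21.9 and 10.4 late. Every late library thus lies above every early one, but the values within a side spread widely, and the log2 fold change of 2.68 (SE 0.53) had an adjusted p of 0.102 with edgeR. *Pmaip1* was called in 5 of 12 other settings. With edgeR these were no block for generation (2.81, adjusted p = 0.0336), no filter on low counts (2.72, adjusted p = 0.0147) and 0 h alone as the early side (3.45, adjusted p = 0.0492). The others were DESeq2 (2.71, adjusted p = 0.00201) and limma-voom (2.81, adjusted p = 0.0449). Of the 11 edgeR fits without 1 library, it was called in 1, that without the 1 h library of 0.2 Gy (3.25, adjusted p = 0.0264). *Bbc3* (PUMA) had 0.441 to 1.37 CPM early and 1.59, 2.16, 2.28, 1.19 and 2.29 late, from at most 61 reads in a library. Its log2 fold change was 1.02 (SE 0.39, adjusted p = 0.578 with edgeR). *Bax*, the pore-forming effector, had 29.6 to 55.1 CPM early and 64.0, 119, 112.7, 52.9 and 57.2 late, a change of 0.79 that was not called. Of the BCL2 survival list 5 of 6 genes were tested, with log2 fold changes from -0.07 to 0.55, and none was called. The 12 caspases and apoptosome genes ran from -0.17 to 0.65, the largest being *Apaf1*, the scaffold of the apoptosome, and none was called. Of these 12, 10 were above 0, as were 10 of the 11 BH3-only genes and effectors, beside 48.2% of all genes. In these 2 lists 3 and 4 genes were higher at an unadjusted p under 0.05 with edgeR and 0 lower. Over all genes tested 3.87% were higher and 3.4% lower in this way.

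*Phlda3* (chr1:135766119-135769136, plus strand), whose product competes with AKT for membrane lipids, was the called gene among 16 other p53 death and signalling targets, beside 0.13% of all genes. It had 1.19 to 4.31 CPM early (median 2.59) and 12, 25.04, 20.3, 7.56 and 5.30 late, a log2 fold change of 2.23 (SE 0.34, adjusted p = 0.0208 with edgeR). The 0.2 Gy values of *Phlda3* lie close above the highest early one, and the gene was called in 4 of 11 fits without 1 library. *Zmat3*, an RNA-binding p53 target, had 12.4 to 24.0 CPM early and 33.3, 44.7, 54.7, 29.6 and 32.8 late, and its change of 1.06 was not called. *Bag4* (chr8:25764538-25785287, minus strand), a chaperone partner known as silencer of death domains, had 35.6 to 65.8 CPM early (median 46.7) and 110.8, 94.6, 107.0, 108.6 and 90.4 late. The late values of *Bag4* are alike at the doses, and its log2 fold change was 1.13 (SE 0.15, adjusted p = 0.00947 with edgeR). *Gm17484* overlaps *Bag4* on the other strand, shares most of the 14.2% of 30-base stretches that are not unique to it, and had a log2 fold change of 1.11 without being called.

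Of 15 metabolic p53 targets, *Sesn2* was called higher, beside 0.13% of all genes tested. It encodes sestrin 2, a leucine sensor that restrains mTORC1, and lies at chr4:132492032-132510501 on the minus strand. *Sesn2* had 1.84 to 5.08 CPM early (median 2.73) and 9.72, 24.7, 26.9, 14.3 and 9.11 late. Its change was 2.33 (SE 0.28, adjusted p = 0.00354 with edgeR) and was called in all 11 fits without 1 library. *Sesn1* (0.25) and *Sesn3* (-0.14) were not called. *Sesn2* was also called among 14 genes of the integrated stress response, of which the others had a log2 fold change of at most 0.35, and with *Phlda3* among 19 genes of AKT, mTOR and follicle dormancy. In that list *Foxo3*, the transcription factor that keeps follicles dormant, stood at 0.03 and *Kit* at 0.09. The transporters *Slc6a8* (creatine, 1.65, SE 0.27, adjusted p = 0.0276 with edgeR) and *Slc19a2* (thiamine, 1.31, SE 0.20, adjusted p = 0.0195) rose too. *Slc6a8* had 7.79 to 13.7 CPM early and 24.1, 38.2, 69.9, 33.4 and 27.1 late.

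DNA repair was represented by a single called gene. *Polk* encodes the translesion polymerase κ and lies at chr13:96480690-96542579 on the minus strand. *Polk* had 17.6 to 28.5 CPM early (median 23.3) and 51.9, 62.4, 62.9, 36.8 and 43.5 late, a log2 fold change of 1.11 (SE 0.15, adjusted p = 0.00880 with edgeR). Of the 10 repair genes on the p53 lists, *Ercc5*, the nuclease XPG of nucleotide excision repair, passed the adjusted p but not the fold limit (0.87, adjusted p = 0.0208 with edgeR). It had 21.9 to 28.3 CPM early and 49.1, 54.7, 62.1, 34.7 and 33.4 late. None of 29 genes of double-strand break repair was called. Over all genes tested 0.134% were called, so that no call in a list of this size says little. Their median log2 fold change was -0.01, 13 of the 29 were above 0, and the range was -0.39 to 0.59. Of 37 tested genes of the DNA repair list of the study, *Polk* was the one called, with a median of 0.03.

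**Figure D3:**
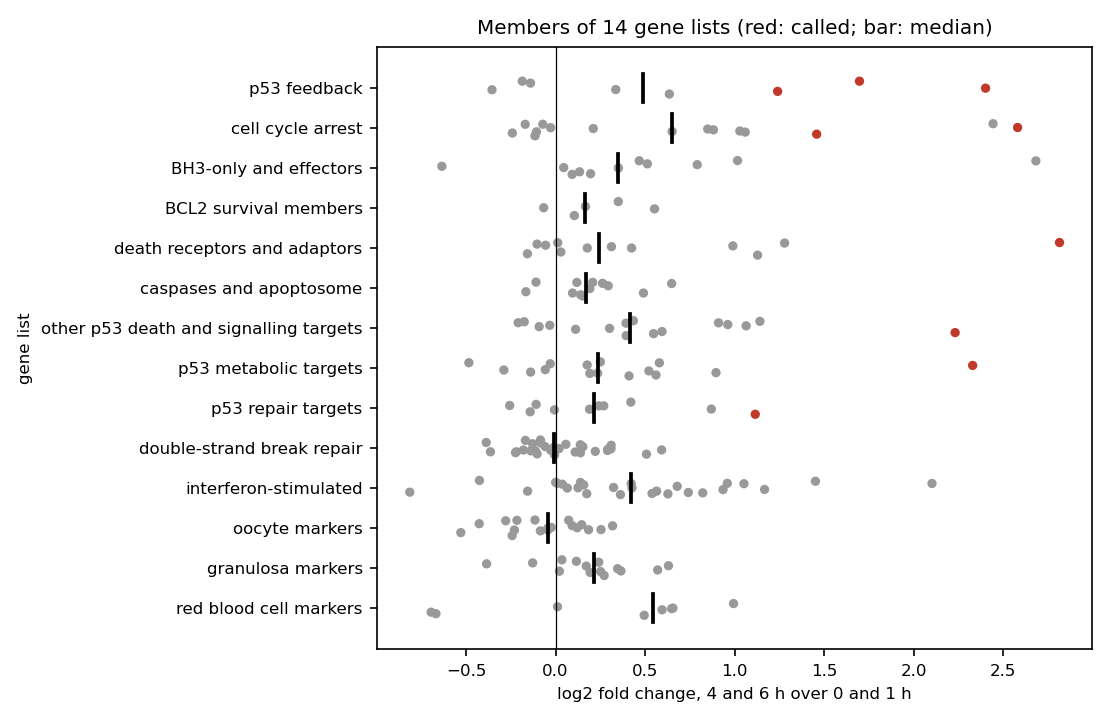
Log2 fold change of each tested member (points) of 14 gene lists (rows), with called genes in red and the median of a list as a bar. The called genes lie in 6 of the 9 p53 lists, while double-strand break repair and the oocyte markers centre on 0.

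The 9 p53 lists together had 104 genes tested, of which 9 were called higher and none lower, beside 0.13% and 0.00419% of all genes tested. Their median was 0.26, 75 of the 104 were above 0, beside 48.2% of all genes, and 37 were higher at an unadjusted p under 0.05 and 0 lower, where 3.87% and 3.4% of all genes were. The 64 genes of a published p53 list that the study used had 7 called higher, a median of 0.36 and 51 genes above 0, to be read against the same shares. Of the 28 called genes, 10 are on these p53 lists and 16 are on none of the lists compared here. The lists were written with earlier results of these data known, so that these counts are descriptions.

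The remaining pair, *Ripk4* and *Fermt1*, is on the list of epithelial p63 targets, of which 25 of 29 genes were tested. These 2 were called higher and none lower, beside 0.13% and 0.00419% of all genes tested. The median of the list was 0.33, and 16 of the 25 were above 0, beside 48.2% of all genes. *Ripk4* (chr16:97741933-97763787, minus strand) encodes a kinase needed for the differentiation of keratinocytes. It had 6.05 to 9.28 CPM early (median 7.27) and 17.7, 34.0, 19.8, 31.3 and 14.7 late, a log2 fold change of 1.62 (SE 0.25, adjusted p = 0.0214 with edgeR). *Fermt1* (chr2:132904389-132945906, minus strand) encodes kindlin-1, an activator of integrins. It had 1.21 to 2.12 CPM early (median 1.40) and 6.12, 11.9, 19.5, 15.3 and 10.3 late. *Fermt1* is among the genes with a larger log2 fold change at 0.2 Gy (3.29, SE 0.47) than at 0.5 Gy (2.79, SE 0.36), and the pooled change was 2.99 (SE 0.29, adjusted p = 0.000576 with edgeR). Classical epithelial genes of the list were not called, as *Itgb4* (0.01), *Dst* (-0.36) and *Grhl2* (-0.27) show. A second kindlin, *Fermt3* (chr19:6998958-7019469, minus strand), which is known from blood cells, had 2.54 to 13.9 CPM early (median 4.88) and 19.6, 53.5, 33.7, 24.6 and 20.7 late. Its change was 2.19 (SE 0.21, adjusted p = 0.000576 with edgeR), and it was called in all 11 fits without 1 library. The highest early value of *Fermt3* is that of replicate 2 of 0 h, the library with the most immune markers, whose part was not tested. *Trpt1*, which overlaps *Fermt3* on the other strand, had a change of 0.11.

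The largest rises belong to genes outside the p53 lists. *D630023F18Rik* (ENSMUSG00000044816, chr1:65105285-65123214, minus strand), known by a clone name, had 0.405 to 2.12 CPM early (median 0.668), from 9 to 68 reads. Its late libraries had 13.9, 64.6 and 75.5 CPM at 0.5 Gy and 30.2 and 34.6 at 0.2 Gy. All late values lie above the early ones. The mean CPM was 46.5 times higher late, with a log2 fold change of 5.21 (SE 0.45, adjusted p = 0.000403 with edgeR). Transcript D630023F18Rik-201 went from a mean of 0.0725 to 4.89 TPM and D630023F18Rik-202 from 0.107 to 3.49. Of its 30-base stretches, 13.7% are shared with other genes, most with *Gm28845*, which overlaps it on the same strand.

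*Ankrd65* (chr4:155790439-155799503, plus strand), an ankyrin repeat gene, had 0.0683 to 0.281 CPM early (1 to 9 reads) and 2.71, 6.86, 7.23, 4.63 and 4.01 late (70 to 194 reads). The log2 fold change of *Ankrd65* was 4.72 (SE 0.43, adjusted p = 0.000403 with edgeR). *Gm648* (chrX:56543874-56549606, minus strand), a predicted gene, had 0.111 to 1.57 CPM early and 8.52, 20.9, 27.9, 20.6 and 9.83 late, a change of 4.68 (SE 0.59, adjusted p = 0.00563 with edgeR). *Igfals* (chr17:24865997-24882010, plus strand) encodes the acid-labile subunit that carries insulin-like growth factors in blood. It had 0.368 to 0.903 CPM early and 9.48, 7.49, 12.5, 4.59 and 3.09 late, a change of 3.51 (SE 0.41, adjusted p = 0.00349 with edgeR). None of the 30-base stretches of *Ankrd65* and *Igfals* occurs in another gene.

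*Crhr1* (the receptor of corticotropin-releasing hormone, chr11:104132855-104175523, plus strand) and *Hpx* (hemopexin, a heme carrier, chr7:105591613-105600137, minus strand) rest on few reads. *Crhr1* had 2 to 12 reads in the early and 21 to 196 in the late libraries, and a log2 fold change of 3.27 (SE 0.54, adjusted p = 0.0324 with edgeR). *Hpx* had 2 to 24 reads early and 24 to 73 late, a change of 2.73 (SE 0.46, adjusted p = 0.0349 with edgeR). *Crhr1* was called in 3 and *Hpx* in 2 of the 11 fits without 1 library. The late values of *Crhr1* reached 7.31 CPM in the 6 h library of 0.5 Gy and 0.813 CPM in replicate 1 of 4 h.

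Of the further called genes, *9930012K11Rik* (chr14:70154405-70159502, minus strand) had 4.64 to 13.9 CPM early and 50.2, 78.8, 78.0, 57.7 and 38.4 late. Its change of 2.54 (SE 0.30, adjusted p = 0.00349 with edgeR) was called in all 11 fits without 1 library. *Ccdc88b* (chr19:6844623-6858211, minus strand), a coiled-coil gene of the Hook-related family, had 0.685 to 1.81 CPM early and 3.41, 11.5, 7.31, 7.67 and 6.10 late, a change of 2.60 (SE 0.35, adjusted p = 0.00880 with edgeR). *Eif3b* (chr5:140419328-140443360, plus strand) encodes a subunit of the translation initiation factor eIF3. It had 35.1 to 58.1 CPM early and 90.8, 109.5, 149.7, 76.5 and 64.2 late, a change of 1.16 (SE 0.17, adjusted p = 0.0166 with edgeR). *Prickle3* (planar cell polarity, 1.87) and *Pard6g* (a subunit of the PAR polarity complex, 1.01) were called at adjusted p-values of 0.0377 and 0.0166 with edgeR. *Pard6g*, with 21.1 to 34.4 CPM early and 55.3, 77.6, 58.0, 54.6 and 43.9 late, has the smallest log2 fold change of the 28, and *Ckap2* (0.90, adjusted p = 0.00647 with edgeR) was the gene with the smallest p below the fold limit.

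Reads of *Mob3a* (1.57, adjusted p = 0.0237 with edgeR) and *Tmem140* (2.11, adjusted p = 0.0328) are less certain, because 58.3% and 36.4% of their 30-base stretches also occur in other genes. The partner of *Mob3a* is *Gm26541*, an overlapping lincRNA on the other strand with a change of 1.79 (adjusted p = 0.0511 with edgeR). The partner of *Tmem140* is *Cyren*, with a change of -0.13. Of the p53 genes, *Mdm4* (14.4%) and *Trp53* (10.6%) share such stretches, most with their pseudogenes. The strand setting of the counting is not given in the sources used here, so that reads of a gene and its antisense partner cannot be told apart.

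**Figure D4:**
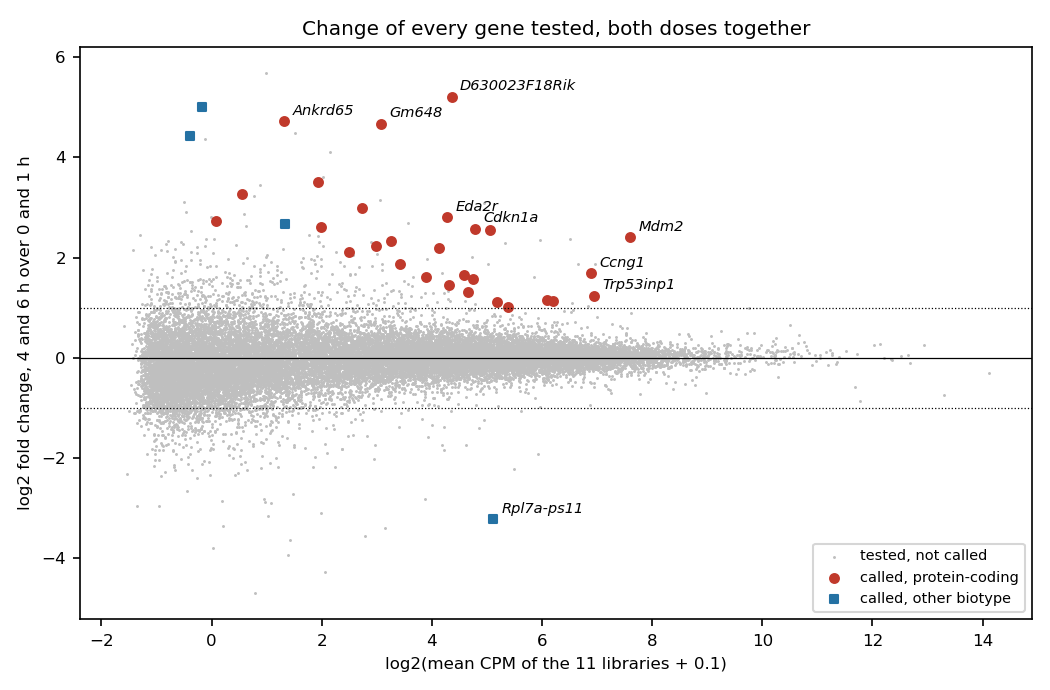
Log2 fold change of 4 and 6 h over 0 and 1 h (y axis) against log2(mean CPM + 0.1) of the 11 libraries (x axis) for all 23840 genes tested, with dotted lines at the fold limit. The 28 called protein-coding genes (circles) all lie above the upper line, and 1 of the 4 called genes of other biotypes (squares), *Rpl7a-ps11*, lies below the lower one.

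Of the genes of other biotypes, 3 were called higher and 1 lower. *Gm43301*, an antisense gene (chr5:122581469-122584853, plus strand), had 0.281 to 1.17 CPM early and 4.65, 4.02, 6.64, 3.85 and 3.13 late (2.67, SE 0.38, adjusted p = 0.0150 with edgeR). The processed pseudogenes *Gm44911* and *Gm7730* had at most 9 and 3 reads in an early library and share 97.1% and 65.2% of their 30-base stretches with other genes. *Rpl7a-ps11*, a processed pseudogene of a ribosomal protein on chromosome X, had 3.57 to 151.5 CPM early (median 32.9) and 1.24, 1.57, 3.36, 11.2 and 21.7 late. The sides overlap, the early libraries of 0.2 Gy (103.6 and 151.5 CPM) are far above the others, and all of its 30-base stretches occur in other genes. Its log2 fold change was -3.21 (SE 0.54, adjusted p = 0.0349 with edgeR), and it was called in 2 of 11 fits without 1 library.

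Among protein-coding genes that were lower late, none passed the threshold. *Gm7173* was closest, with 14.2 to 24.2 CPM early and 10.1, 7.68, 9.06, 9.63 and 10.2 late (-0.95, SE 0.19, adjusted p = 0.110 with edgeR). The late values of *Gm7173* all lie below the early ones, as did those of *Tmem221* (-2.17, adjusted p = 0.116 with edgeR). Every late library lay below every early one in 64 genes (0.268% of those tested) and above it in 151. The oocyte transcription factor *Lhx8* had 44.3 to 92.9 CPM early and 39.9, 52.0, 41.5, 44.3 and 30.8 late, a change of -0.53 that was not called.

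All 28 called genes were higher late at both doses in a fit with a separate change for each dose. They were called on these same 11 libraries, 7 of them of 0.5 Gy. The shared direction and the larger changes at 0.5 Gy thus follow in part from the choice of genes. Their median log2 fold change was 2.31 at 0.5 Gy and 1.60 at 0.2 Gy, and 23 of the 28 were larger at 0.5 Gy. The difference between the doses had an unadjusted p under 0.05 in 7 of the 28 genes, a larger share than the 9.22% of all genes, and an adjusted p under 0.05 with edgeR in 0. The difference was largest in *Crhr1* (2.38), *Hpx* (2.05), *Cdkn1a* (1.82, SE 0.58) and *Igfals* (1.804). For *Cdkn1a* the changes were 3.25 (SE 0.37) at 0.5 Gy and 1.42 (SE 0.46) at 0.2 Gy, with an adjusted p of 0.450 for the difference with edgeR. For *Mdm2* they were 2.59 (SE 0.18) and 2.10 (SE 0.24), which differed by 0.49 (adjusted p = 0.629). *Fermt1*, *Sesn2*, *Fermt3*, *Gm648* and *Bag4* had the larger value at 0.2 Gy. In 12 of the 28 genes every late library of 0.5 Gy lay above both late libraries of 0.2 Gy, a larger share than the 11.2% of all genes tested. Over all genes, 34 were called higher at 0.5 Gy (0.143%) and 12 at 0.2 Gy (0.0503%), where 2 were called lower (0.00839%), and 10 were called in the difference (0.0419%), none of them among the 28. These counts rest on single libraries: leaving out replicate 2 of 1 h gave 8 at 0.5 Gy, and leaving out the library of 0 h at 0.2 Gy gave 0 at 0.2 Gy.

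**Figure D5:**
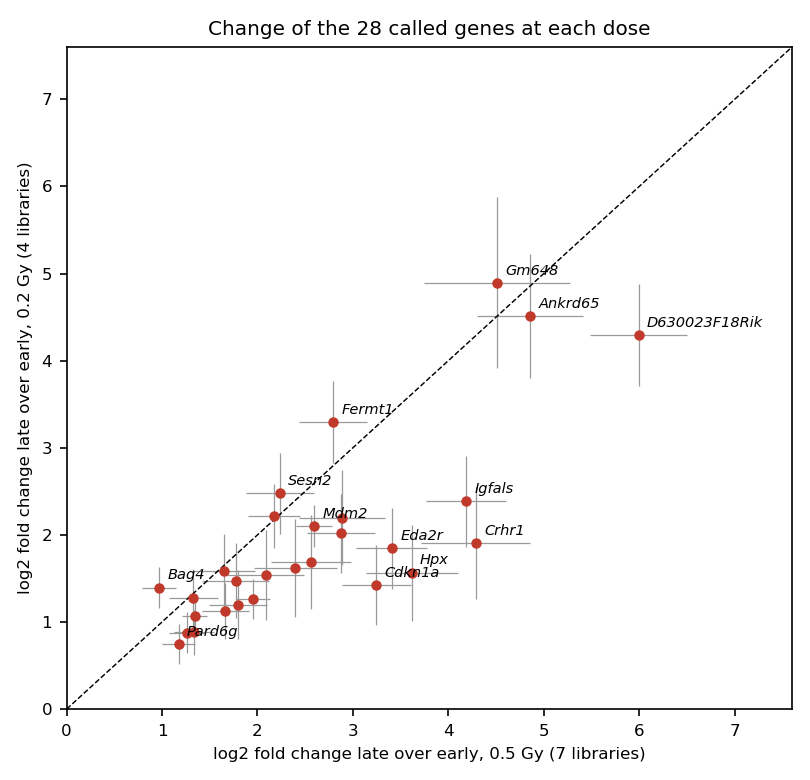
Log2 fold change late over early of the 28 called genes at 0.2 Gy (y axis) against that at 0.5 Gy (x axis), with standard errors as bars and a dashed line of equal change. All points lie above 0 on both axes and 23 lie below the line, for genes that were called on the same libraries.

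The doses were also fitted on their own libraries, which share no sample. The 7 libraries of 0.5 Gy alone called 9 genes higher (0.0383% of 23488) and 0 lower, namely *9930012K11Rik*, *Ankrd65*, *Ccng1*, *Cdkn1a*, *D630023F18Rik*, *Eda2r*, *Igfals*, *Mdm2* and *Trp53inp1*. In the 4 libraries of 0.2 Gy, all 9 were higher late, where 53.1% of the genes tested at both doses were, and all 9 had an unadjusted p under 0.05, which 12.3% of the genes tested there had. Their median log2 fold change was 3.25 at 0.5 Gy and 2.06 at 0.2 Gy, with values at 0.2 Gy from 1.10 (*Trp53inp1*) to 4.56 (*Ankrd65*). None of the 9 was called in the 0.2 Gy libraries alone, where 2 genes were (0.00748%), both lower, and the smallest adjusted p there among them was 0.0629 for *Mdm2* with edgeR.

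Interferon-stimulated genes are antiviral genes that STAT factors switch on. None of 27 was called, beside 0.134% of all genes tested. A log2 fold change above 0 was seen in 24, beside 48.2% of all genes, and the median was 0.42. The summed CPM of the 27 genes was 294 to 509 in the early libraries, 280 and 370 at 4 h of 0.5 Gy and 386 at 4 h of 0.2 Gy, but 841 and 595 in the 6 h libraries of 0.5 and 0.2 Gy. The high values are thus those of 6 h, and with 4 h alone as the late side the median of the list was -0.07. *Usp18*, the protease that removes ISG15 from proteins, had 1.05 to 8.32 CPM early, 2.75, 4.88 and 4.52 at 4 h, and 45.9 and 11.04 at 6 h of 0.5 and 0.2 Gy. *Rtp4* went the same way, with 7.74 to 16.2 CPM early, 9.99, 17.0 and 18.3 at 4 h, and 71.7 and 30.8 at 6 h. These genes were chosen after their values were seen, and each dose has 1 library at 6 h.

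None of 15 genes of Notch signalling was called, and their median log2 fold change was -0.14. Among 16 TRAF and NF-κB genes none was called, but *Traf3* (1.28, adjusted p = 0.0516 with edgeR) and *Traf4* (1.10, adjusted p = 0.101) stood just outside the threshold. The 18 immediate early genes had a median of 0.12 with none called. Over all genes tested 0.134% were called, so that no call in lists of this size says little.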

How the data were processed

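RNA-seq libraries of oocytes were labelled by dose, time and generation, and samples were grouped from those labels. The authors made the files with Salmon on GRCm38 transcripts, and each deposited file holds estimated counts and TPM per transcript of 1 library. Deposited tables of the authors' own comparisons (DESeq2 1.24.0 fold changes and p-values, with merged normalised counts) were not used. Estimated counts were summed per gene of the matching annotation and rounded, which left out 402 of 130740 transcripts without a gene. The total per library ran from 15709549 to 30430104. TPM was used for transcripts alone.

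Genes were filtered with filterByExpr, scaled with TMM and tested with edgeR 4.0.16 in R 4.3.3 (quasi-likelihood, generation as a block, Benjamini-Hochberg adjustment over all 23840 genes). A second fit split the change by dose. Technical measures were compared with an exact two-sided permutation test within generations (108 assignments). The fit was tested on simulated counts. Alternatives were other scaling and filters, no block, crossed generations, DESeq2 1.42.0, limma-voom (limma 3.58.1), other time points, each dose alone, and each library left out.

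Named were the 15 protein-coding genes with the largest rise that were separated in each generation, called members of the p53 lists, 9 fixed genes and 3 called genes of other biotypes; all other names were chosen after their values were seen. The members and lists were chosen with earlier results of these data known. Counting limits and read numbers cover counting error only.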

Additional observations from a re-analysis of the deposited data

Results flagged for a closer look

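Among 76 groups of 5 or 6 libraries examined for a library far from the others, of which chance gives about 1 in 20, 2 had one. *Fermt1* had 2.12 CPM in replicate 2 of 0 h at 0.5 Gy, far above the other early libraries, and still below every late library. *Gm44911* had 0.332 CPM in replicate 2 of 1 h at 0.5 Gy and no reads in the other early libraries.

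The 2.5 h libraries entered no comparison. At 2.5 h of 0.5 Gy, 26 of the 28 called genes lay above every early library, as did 14.6% of all genes, and at 0.2 Gy 14 of the 28 did, against 12.4% of all genes. Each dose has 1 library at 2.5 h, and the difference between the doses was not tested.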

How the results depend on the processing

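The 28 protein-coding genes called higher had a log2 fold change above 0 in every alternative in which they were tested (26 of them with at least 1 CPM in 5 libraries). Counts are given as protein-coding genes higher and lower, then all genes higher and lower, against 28 and 0, and 31 and 1, in the report. They were 45 and 0, 51 and 1 with no filter on low counts, 100 and 21, 115 and 39 with DESeq2, and 36 and 0, 41 and 2 with limma-voom. They were 18 and 0, 20 and 0 with 2.5 h added, 8 and 0, 8 and 0 with 0 h alone as the early side, 23 and 0, 24 and 0 with 4 h alone as the late side, 9 and 0, 9 and 0 at 0.5 Gy alone, and 0 and 1, 0 and 2 at 0.2 Gy alone. The last 4 used fewer libraries. Without 1 library each they ranged from 14 to 33 and 0 to 1, and from 15 to 35 and 0 to 2. The cause of the other shifts was not tested.

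Libraries that share a generation number deviated together only weakly at 0.5 Gy (correlations 0.148, 0.0926 and 0.128 for 0 and 1 h, 0 and 4 h, and 1 and 4 h), which does not show that the numbers pair the samples. The generation was nevertheless the block of the fit in the report, as fixed in its design, and the 28 calls come from that fit. Without the replicate block the counts were 36 and 1, 40 and 1, with 26 of the 28 genes called, and with the generations crossed at 1 and 4 h 34 and 1, 38 and 3, again with 26 of the 28.

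The median of the p53 list of the study, 0.36, was 0.62 at 0.5 Gy alone and 0.26 at 0.2 Gy alone, and 0.29 to 0.42 without 1 library. That of the 9 p53 lists, 0.26, was 0.34 with 4 h alone and 0.24 to 0.30 without 1 library. *Trp63* turned to 0.054 with 2.5 h added, 0.071 with 0 h alone, 0.13 with 4 h alone, 0.064 at 0.2 Gy alone, and ranged from -0.28 to 0.064 without 1 library. *Mdm4* was 0.22 at 0.2 Gy alone.

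With no filter on low counts, an alternative chosen after seeing the data, the fit split by dose called 55 genes higher at 0.5 Gy and 31 at 0.2 Gy, with 40 in the difference. Without 1 library these ranged from 8 to 32, 0 to 16 and 0 to 22, and none of the 28 genes had a called difference in any of these fits. *Hpx* and *Crhr1*, which have few reads, were called in 2 and 3 of the 11 fits of the pooled comparison without 1 library. Changes below the fold limit were left out by the rule for calls, and without that limit 36 genes were higher and 1 lower at an adjusted p under 0.05 with edgeR.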
